A study of Saccharum hybrid cultivar with 12 samples.

Results

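The unigenes described here were counted in every stem library of 2 sugarcane genotypes and in no library of the third. A unigene was a member when it had no count in the 4 libraries of one genotype and at least 10 counts in each of the 8 libraries of the other genotypes. Members were ranked by their lowest CPM (counts per 1000000 counts of the library) in those 8 libraries, and at most 100 were kept for each missing genotype, leaving out any unigene that the paper names by id. This gave 100 unigenes missing from HS, 100 missing from MS and 100 missing from LS, which is 300 of the 163054 unigenes in each table. The members were chosen by these counts, so their absence is given below as a description, with no test.

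The genotypes were ROC22, a high-sugar commercial variety with a sucrose content of 15.0% (HS), YT71-210, a medium-sugar genotype with 12.6% (MS), and GT86-887, a low-sugar genotype with 6.0% (LS). MS and LS are non-commercial genotypes. Field-grown plants received a foliar spray of water (CK) or of ethephon giving 400 mg/L ethylene (T), and RNA came from developing stalk tissue, above the node of a young expanded leaf. Each of the 6 groups, written HS_CK, HS_T and so on, had 2 biological replicates, so every genotype had 4 libraries. Each genotype was represented by 1 clone, so what differs between HS, MS and LS cannot be told apart from what differs between any 3 clones of unlike sucrose content.

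Modern sugarcane cultivars descend from crosses between Saccharum officinarum and Saccharum spontaneum, and their highly polyploid genomes carry several homologous copies of most genes, in sets that can differ from clone to clone. Trinity, the assembler used here, groups overlapping transcripts into components and divides a component into unigenes, so that homologous copies or related genes may appear as separate unigenes of a component. In an id such as c79034_g3, the first number is the component and the second the unigene within it. Ethephon releases ethylene inside the plant and is used to ripen cane before harvest. The deposited tables give no gene names, so the function of the members is not known here and the tissue could not be checked against marker genes.

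Library totals ran from 19765594 to 28747056 counts. The 4 libraries of the missing genotype summed to 88936540 counts in HS, 92175454 in MS and 88687408 in LS. A count of 0 over these totals allows a level of up to 0.0337 CPM in HS, 0.0325 in MS and 0.0338 in LS, for counting error only. Within each of the 6 groups the replicates were further apart than sampling noise allows, and each library was counted on its own. RNA came from bulk tissue, in which fewer cells of a type and less RNA per cell cannot be told apart. A count of 0 says that no fragment was assigned to that assembled sequence, and the genomes of the genotypes were not analysed here.

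Before the limit of 100 was applied, 192 unigenes were missing from HS, 180 from MS and 121 from LS. These were 0.587%, 0.558% and 0.376% of the 32719, 32255 and 32203 unigenes that had at least 10 counts in each of the 8 other libraries. A further 80, 93 and 66 unigenes that were well counted in the 8 libraries had 1 to 3 counts in the 4 libraries of HS, MS and LS, and 114, 89 and 80 had 4 to 10. Of the 80 unigenes that the paper names by id, 0 met the rule.

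The share of unigenes without a count in the third genotype fell with their level in the other genotypes. Among unigenes whose lowest CPM was between 0.5 and 1, 1.54% were missing from HS, 1.57% from MS and 1.12% from LS. Between 2 and 5 CPM the shares were 0.451%, 0.440% and 0.373%. At 10 CPM or more, 0 of 11225 were missing from HS, 2 of 11222 from MS and 3 of 11280 from LS. Most members were therefore of low abundance, and the lists without HS and without LS differed in length chiefly below 2 CPM, where 1.08% were missing from HS and 0.398% from LS between 1 and 2 CPM.

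**Figure D1:**
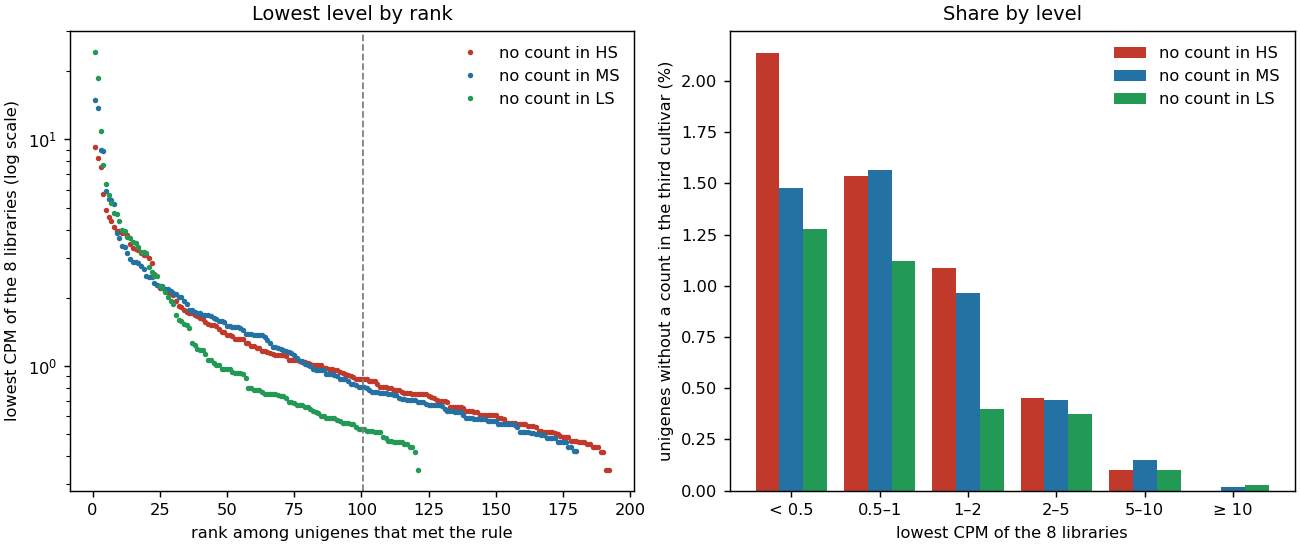
Left, lowest CPM of the 8 libraries that hold the unigene (log scale) against rank, for every unigene that met the rule; the dashed line marks the limit of 100. Right, percent of unigenes in each range of lowest CPM that had no count in the third genotype; the highest bar is 2.13%, for unigenes under 0.5 CPM missing from HS, and the bars at 10 CPM or more are 0, 0.0178% and 0.0266%.

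The limit of 100 ended the lists at low levels. The last member kept in the list without HS, c71826_g1, and the first left out, c78497_g1, both had a lowest CPM of 0.879, and of 3 unigenes tied at that value 2 were kept by the order of their ids. The list without MS ended with c79754_g1 and left out c93227_g1, both at 0.809 CPM, also with 2 of 3 tied unigenes kept. The list without LS ended with c75392_g1 at 0.529 CPM and left out c104104_g3 at 0.527. In all, 92, 80 and 21 unigenes that met the rule lay outside the limit.

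The 3 members of highest rank without HS were present at 7.54 to 25.3 CPM in the libraries of MS and LS. c60230_g2 had 14.6 and 13.7 CPM under water and 13.0 and 16.6 after ethephon in MS, and 23.7 and 25.3 under water and 16.1 and 9.21 after ethephon in LS. c105180_g1 had 12.7 and 9.14 CPM under water and 8.42 and 11.4 after ethephon in MS, and 8.25 and 8.89 under water and 9.92 and 12.6 after ethephon in LS. c99016_g1 had 9.68 and 9.37 CPM under water and 8.92 and 14.7 after ethephon in MS, and 15.0 and 14.3 under water and 11.5 and 7.54 after ethephon in LS. The ranges of MS and LS overlapped for all 3, and the level in HS was 0 in each of 4 libraries. Against the limit of 3 counts over the 4 HS libraries, the pooled counts of the other 8, per count sequenced, were at least 495-fold higher for c60230_g2, at least 301-fold for c105180_g1 and at least 344-fold for c99016_g1. Only the first of the 3 had another unigene in its component.

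The list without MS held the member with the most counts of all 300, c93830_g1. Its CPM was 178 and 169 under water and 143 and 156 after ethephon in HS, and 14.0 and 15.5 under water and 8.95 and 9.06 after ethephon in LS, and every HS library lay above every LS library. It was at least 2671-fold higher in the 8 libraries than the limit in MS. The member of first rank, c93808_g2, had 35.1 and 19.4 CPM under water and 23.3 and 33.1 after ethephon in HS, and 21.7 and 14.9 under water and 16.2 and 17.4 after ethephon in LS. c53679_g1 had 33.2 and 26.3 CPM under water and 21.8 and 23.0 after ethephon in HS, and 49.4 and 23.2 under water and 17.7 and 13.8 after ethephon in LS. The ranges of HS and LS overlapped for both. These were at least 696-fold and at least 805-fold above the limit in MS.

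The list without LS began at the highest level, with 24.3 CPM in the lowest library of its first member, and ended at the lowest. c82645_g3 had 33.5 and 29.4 CPM under water and 27.8 and 24.3 after ethephon in HS, and 99.8 and 52.2 under water and 62.3 and 82.9 after ethephon in MS. c89775_g1 had 24.3 and 20.8 CPM under water and 19.5 and 18.7 after ethephon in HS, and 55.2 and 49.4 under water and 60.0 and 65.1 after ethephon in MS. Both were higher in each MS library than in any HS library. c30900_g2 was level across the 8 libraries, with 14.8 and 10.9 CPM under water and 12.6 and 12.5 after ethephon in HS, and 12.7 and 12.6 under water and 13.0 and 11.9 after ethephon in MS. The 8 libraries lay at least 1543-fold, at least 1178-fold and at least 374-fold above the limit in LS.

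**Figure D2:**
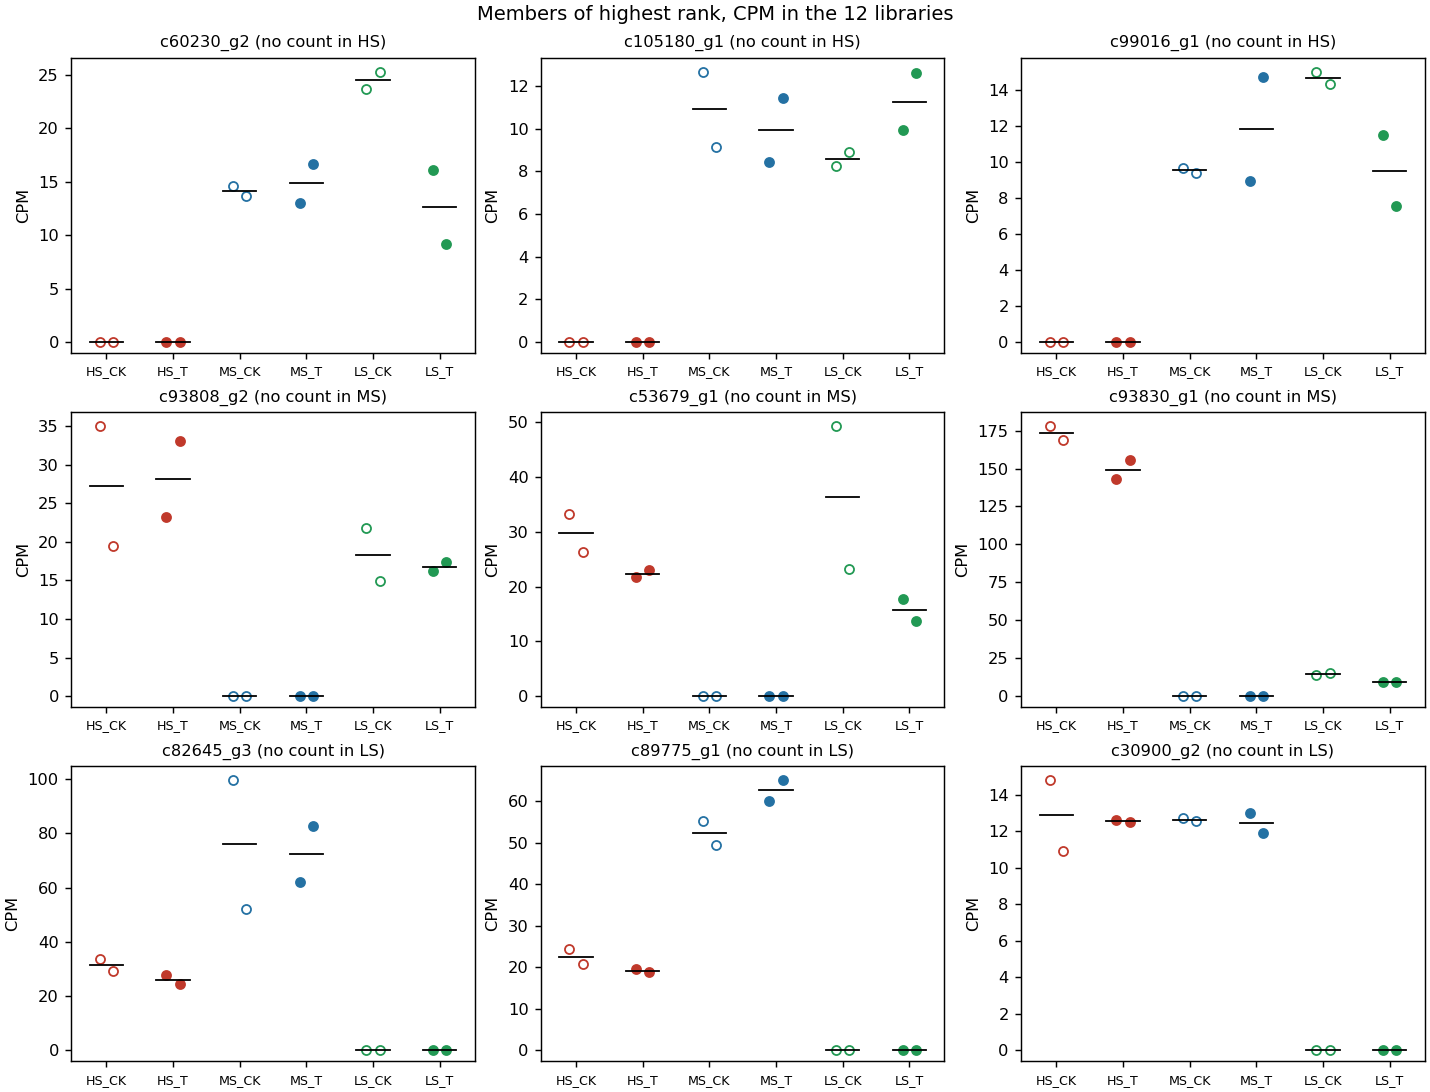
CPM of the 3 members of highest rank for each missing genotype in the 12 libraries (open points water, filled points ethephon, lines the mean of 2 replicates); each panel has its own scale. The 4 libraries of the missing genotype are at 0 in every panel, and c93830_g1 reaches 178 CPM in HS against at most 15.5 in LS.

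As a whole the 3 lists had like levels. Mean FPKM (CPM per kilobase of unigene) over the 8 libraries had a median of 3.36 without HS, 3.47 without MS and 3.16 without LS, with ranges of 0.286 to 35.9, 0.529 to 109.7 and 0.423 to 73.6. The 30461 unigenes with at least 10 counts in all 12 libraries had a median of 10.3. Pooled in the same way, the 8 libraries exceeded the limit in the missing genotype by at least 34.1-fold to 595-fold in the list without HS, with a median of 78.0. The bounds ran from 35.3 to 2671 without MS, with a median of 84.2, and from 24.8 to 1543 without LS, with a median of 61.1.

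Over both treatments, the summed level of the members differed by less than the spread between libraries in 2 of the lists. The 100 members without HS summed to 421.8 ± 39.5 CPM in MS and 394.7 ± 61.2 in LS (SD, n = 4 libraries each). These SDs include any difference between water and ethephon. Under water the sums were 416 and 385 in MS and 451 and 434 in LS. After ethephon they were 408 and 477 in MS and 377 and 316 in LS. In this list LS thus lay above MS under water and below it after ethephon. Those without LS summed to 404.1 ± 22.7 CPM in HS and 402.7 ± 41.6 in MS. Those without MS summed to 581.6 ± 46.1 CPM in HS and 391.4 ± 47.8 in LS, and of these sums c93830_g1 alone gave 161 ± 15.4 and 11.9 ± 3.38. The higher mean lay in the genotype of higher sucrose content for 49 of 100 members without HS (MS over LS), 50 of 100 without MS (HS over LS) and 54 of 100 without LS (HS over MS). These tallies are of CPM and depend on the scaling, since in the edgeR model, with TMM scaling (edgeR's adjustment of library sizes), the log2 difference had that direction for 52, 62 and 55 members, against 48.3%, 47.7% and 48.8% of all unigenes tested.

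The length of a member was not used by the rule. The length implied by its count and FPKM, as a median over libraries, was in the middle of the list 1106 bases without HS, 876 without MS and 815 without LS. The unigenes counted in all 12 libraries had a median of 962 bases, with quartiles of 528 and 1616. Under 500 bases lay 20, 25 and 28 of the 100 members, against 23.3% of those unigenes. Over 2000 bases lay 18, 17 and 9, for which the share of those unigenes was not computed. The lists therefore overlapped widely in length with each other and with the unigenes counted everywhere. Effective lengths ran from 127 to 4777 bases without HS, from 53.1 to 5345 without MS and from 58.8 to 4177 without LS. These implied lengths are not the assembled lengths of the unigenes.

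Most counts of the members were whole numbers, as they are where each fragment is placed on a single unigene. Of the 800 values in each list, 0.875% without HS, 4.25% without MS and 3.25% without LS were not whole as deposited (to 2 decimals, with no tolerance), in 2, 7 and 6 members. For the unigenes counted in all 12 libraries, the corresponding shares of values over the same 8 were 3.48%, 3.38% and 3.30%. A value that was not whole occurred in 6.35%, 6.20% and 6.20% of those unigenes. The implied length of 16, 15 and 10 members changed by more than 1.5 times between libraries, against 12.4%, 12.7% and 11.9% of those unigenes. Among the unigenes named below, c81139_g1 had an implied length from 505 to 2605 bases, c83415_g2 from 463 to 1418 and c85325_g3 from 765 to 2580, so that their CPM and FPKM differ in the size of a change.

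Other unigenes of the same component were often counted in the genotype from which the member was missing. At least 1 partner, meaning another unigene of the component, existed for 58 members without HS, 58 without MS and 69 without LS, against 58.3% of the unigenes counted in all 12 libraries. A partner with at least 10 counts over the 4 libraries of the missing genotype was found for 48, 43 and 52 members, against 44.7%, 46.1% and 47.3% of those unigenes. For 49, 52 and 41 members the whole component, the member included, had no count in the missing genotype. Of these, 42, 42 and 31 were the single unigene of their component, which the rule itself leaves without a count. The share with a counted partner was thus near that of unigenes at large in all 3 lists.

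For each list, the member whose partner was most abundant in the missing genotype is described next. This choice favours a partner far above its member, and some pairs named further below were closer or reversed. For c97826_g3, missing from HS and at 9.57 ± 2.78 FPKM in MS and 12.1 ± 2.77 in LS (SD, n = 4), the partner c97826_g1 was at 736 ± 64.2 FPKM in HS, 966 ± 117 in MS and 773 ± 129 in LS. Its CPM in HS was 1018 and 1189 in HS_CK and 989 and 1011 in HS_T, and the log2 difference of HS from the mean of MS and LS was -0.12 ± 0.11 (SE), with an adjusted p of 0.416 by edgeR's quasi-likelihood test. For c101036_g1, missing from LS and at 0.393 ± 0.0862 FPKM in HS and 0.578 ± 0.150 in MS, the partner c101036_g2 was at 125 ± 28.4 FPKM in LS. It had 364 and 298 CPM in LS_CK and 421 and 250.1 in LS_T, and LS differed from the mean of HS and MS by 0.15 ± 0.14 on the log2 scale, with an adjusted p of 0.413 in edgeR. Neither of these partners passed the test.

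For c95634_g4, missing from MS, the partner varied widely between libraries. Its water and ethephon libraries did not overlap in MS, where it was lower after ethephon, or in LS, where it was higher. This partner, c95634_g1, had 114.5 and 158 CPM in MS_CK and 5.59 and 6.99 in MS_T, 80.9 and 372 under water and 237 and 125 after ethephon in HS, and 8.70 and 33.8 under water and 442 and 153 after ethephon in LS. Over both treatments its mean FPKM was 110.3 ± 126 in MS, 326 ± 211 in HS and 252 ± 324 in LS (SD, n = 4). The ranges of all 3 genotypes overlapped. The log2 difference of MS from the mean of HS and LS, also over both treatments, was -2.13 ± 0.50, with an edgeR adjusted p of 0.00629.

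Partners were also tested as a group, with the missing genotype set against the mean of the others (edgeR, adjusted p under 0.005 and a fold change over 2 over all 54433 unigenes tested). Of 141, 149 and 205 partner unigenes without HS, MS and LS, 85, 91 and 132 had enough counts for the test. Lower in the missing genotype were 23 of 85 in HS, 24 of 91 in MS and 32 of 132 in LS, which is 27.1%, 26.4% and 24.2%, against 8.02%, 8.00% and 6.11% of all unigenes tested. Of these, 12, 8 and 9 had no count at all in the missing genotype and had passed the filter through the other genotypes, so they had to differ. Higher in the missing genotype were 5 of 85 in HS (5.88%, against 10.5% of all), 5 of 91 in MS (5.49%, against 8.44%) and 32 of 132 in LS (24.2%, against 13.9%). Of these, 0, 3 and 10 had no count at all in the 8 libraries of the other genotypes and had passed the filter through the missing genotype alone, so they had to differ as well, and nothing is read from the counts in either direction. The median log2 difference of the partners tested was -0.37 in HS, -0.59 in MS and -0.12 in LS, beside -0.02, -0.01 and 0.04 for all unigenes tested. These medians include the same partners that had to differ, so nothing is read from them either. Partners of a component come from overlapping transcripts, so they are not taken as independent of the member or of each other.

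In a few components the member had a mirror image, a partner with at least 10 counts in each library of the missing genotype and none in the other 8. There were 0 such members without HS, 3 without MS and 6 without LS. Of the unigenes counted in all 12 libraries, 0.325%, 0.299% and 0.634% had a partner counted in HS alone, in MS alone or in LS alone. These pairs are named here after their values were seen. Unigenes counted in 1 genotype alone numbered 264 in HS, 252 in MS and 596 in LS in the whole assembly.

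The partner with the most counts was in component c79034. The member c79034_g3 had 57 and 33 counts under water and 91 and 51 after ethephon in HS, and 24 and 33 under water and 52 and 129 after ethephon in MS, and its partner c79034_g2 had 810 and 802 in LS_CK and 917 and 437 in LS_T. Per length, the member was at 2.24 ± 1.06 FPKM over its 8 libraries and the partner at 11.4 ± 2.74 over its 4. The libraries that held one of the pair had no count for the other. In c93348 the member c93348_g4, at 0.501 ± 0.207 FPKM in HS and MS, stood against c93348_g2 at 2.34 ± 0.720 and c93348_g3 at 5.10 ± 1.02 in LS. The implied lengths of c93348_g4 and c93348_g3 were 2869 and 2854 bases.

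The remaining pairs varied in which unigene stood higher. In c102071, c102071_g2 was at 3.63 ± 1.54 FPKM in HS and MS and c102071_g4 at 6.14 ± 1.48 in LS, with implied lengths of 321 and 314 bases. In c92360, c92360_g6 was at 2.68 ± 0.836 FPKM and c92360_g2 at 3.24 ± 1.28 in LS. Of the members without MS, c36581_g1 was at 13.7 ± 6.17 FPKM in HS and LS and its partner c36581_g2 at 3.66 ± 1.02 in MS. In c76174, c76174_g6 was at 22.5 ± 9.47 FPKM and c76174_g3 at 2.40 ± 0.562 in LS, with implied lengths of 71.1 and 421 bases. In CPM this pair was at 1.61 ± 0.723 and 1.01 ± 0.241, so most of the gap in FPKM came from the implied lengths. In c85723, c85723_g6 was at 2.03 ± 0.810 FPKM against c85723_g2 at 11.3 ± 2.19 and c85723_g7 at 10.4 ± 4.0 in LS. The last 2 pairs were both without MS, with c69981_g4 at 2.67 ± 0.884 against c69981_g3 at 10.7 ± 6.56 FPKM and c82970_g1 at 1.57 ± 1.38 against c82970_g3 at 2.59 ± 1.44. These spreads are SDs over 8 libraries for the member and 4 for the partner.

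**Figure D3:**
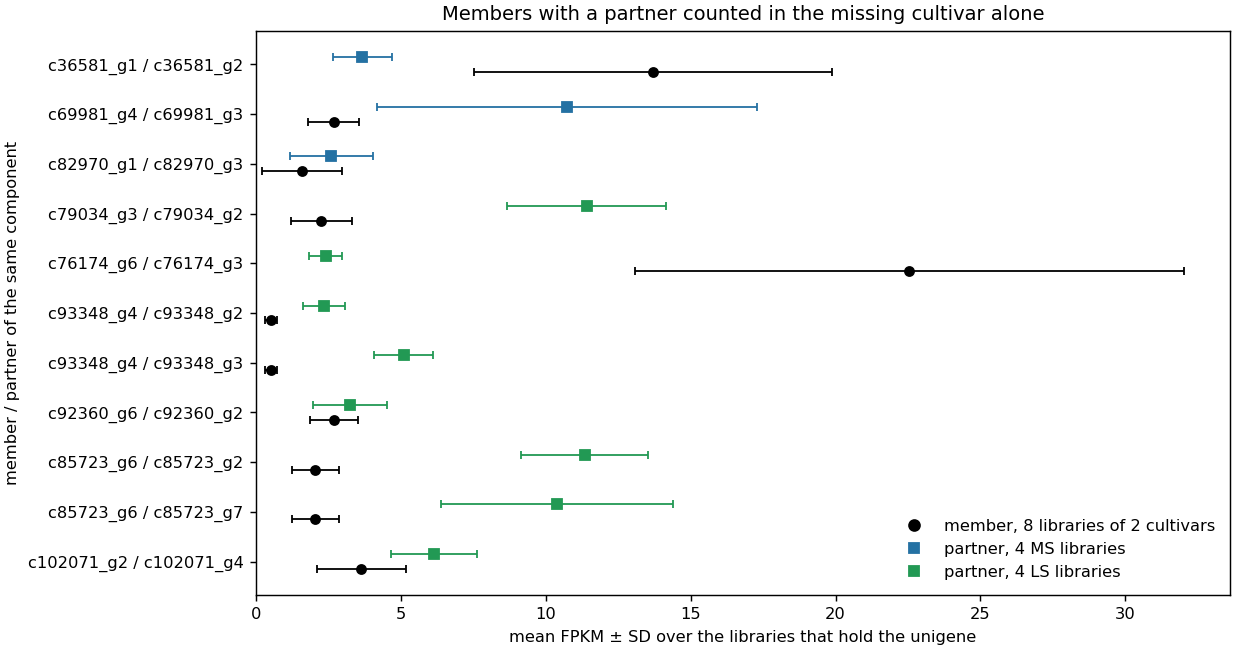
Mean FPKM ± SD of each member with a partner counted in the missing genotype alone (black circles, 8 libraries) and of that partner (squares, 4 libraries; blue MS, green LS). No member without HS had such a partner, and partner levels run from 2.34 to 11.4 FPKM.

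Some components held more than 1 member. In the lists without HS, MS and LS, 2, 3 and 2 components held 2 members each. In component c72866 the lists met, since c72866_g3, at 1.33 ± 0.465 CPM (SD, n = 8), was missing from MS and c72866_g7, at 1.02 ± 0.382, from LS. These were named after their values were seen.

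The level of a member could also differ between the 2 genotypes that held it. The rule used these levels through the minimum of 10 counts and the rank by the lowest library. That rank favours unigenes at like levels in the 8 libraries, so the numbers called are not independent of the rule. The test was edgeR's quasi-likelihood test over both treatments, in a model of all 12 libraries, with a unigene called at an adjusted p under 0.005 and a fold change over 2. The p-values measure the spread between these samples. Of the members without HS, 12 were higher in MS and 10 higher in LS. That is in all 22 of 100, against 20.9% of all unigenes tested (7.98% higher in MS, 12.9% in LS). Of the members without MS, 18 were higher in HS and 8 in LS, in all 26 against 22.9% (9.46% and 13.4%). Of the members without LS, 17 were higher in HS and 9 in MS, in all 26 against 19.5% (10.3% and 9.15%).

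Among the 32719, 32255 and 32203 unigenes with at least 10 counts in the same 8 libraries, 10.99%, 12.7% and 11.6% were called. The share of members called was above this in each list. These unigenes lie at higher levels than the members. The median absolute log2 difference of the members was 0.59 between MS and LS, 0.53 between HS and LS and 0.75 between HS and MS, against 0.33, 0.37 and 0.35 for the unigenes counted in the same 8 libraries. It was 0.53, 0.59 and 0.54 for all unigenes tested. Within a member, the highest of the 8 libraries exceeded the lowest by a median of 2.72, 2.49 and 2.84 times, against 2.06, 2.06 and 1.94 times, over the same libraries, in the unigenes counted in all 12.

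Missing from HS, c81139_g1 was the member most higher in MS. Its CPM was 26.6 and 31.9 in MS_CK and 29.1 and 58.1 in MS_T, against 1.04 and 1.09 in LS_CK and 1.42 and 1.21 in LS_T. The log2 difference was 4.96 ± 0.24 (SE) with an adjusted p of 9.31e-07 in edgeR. This size is on the count scale, and the implied length of c81139_g1 varied between libraries, as given above. c84216_g1 followed, with 6.48 ± 0.847 CPM in MS and 1.28 ± 0.356 in LS (SD, n = 4) and a log2 difference of 2.40 ± 0.25. Neither overlapped between the genotypes. In the other direction, c64223_g1 had 6.21 and 5.01 CPM under water and 4.90 and 5.15 after ethephon in MS, and 23.5 and 28.6 under water and 23.7 and 30.6 after ethephon in LS, a log2 difference of -2.27 ± 0.15 with an adjusted p of 6.08e-06 in edgeR. c74646_g1, at 4.59 ± 0.252 CPM in MS and 20.1 ± 1.72 in LS, gave -2.07 ± 0.12.

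Missing from MS, c93830_g1 was also the member most higher in HS than in LS, by 3.96 ± 0.11 on the log2 scale, with an edgeR adjusted p of 6.38e-08. c81024_g1 had 13.6 and 6.65 CPM in HS_CK and 12.2 and 6.16 in HS_T, against 0.822 and 0.927 in LS_CK and 2.00 and 2.33 in LS_T, a log2 difference of 2.96 ± 0.30. c75920_g1 lay the other way, with 2.12 ± 0.516 CPM in HS and 14.4 ± 1.81 in LS and a log2 difference of -2.63 ± 0.16. c94571_g1, with 2.56 ± 0.513 CPM in HS and 16.7 ± 4.25 in LS, gave -2.52 ± 0.21. All 4 had no overlap between HS and LS libraries.

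Missing from LS, c66387_g1 had 26.1 and 27.8 CPM under water and 26.2 and 14.9 after ethephon in HS, and 2.25 and 3.56 under water and 2.63 and 5.25 after ethephon in MS, a log2 difference of 2.89 ± 0.26 with an adjusted p of 3.99e-05 in edgeR. c83415_g2, with 6.30 ± 0.448 CPM in HS and 1.39 ± 0.282 in MS, gave 2.28 ± 0.19. c87069_g1 was lower in HS, with 0.888 ± 0.275 CPM in HS and 4.43 ± 0.534 in MS and a log2 difference of -2.21 ± 0.24. c85325_g3 had 0.810 ± 0.138 CPM in HS and 3.97 ± 0.709 in MS and gave -2.18 ± 0.21. On the FPKM scale, where the implied length of a unigene enters, c83415_g2 and c85325_g3 differed less, with 4.87 ± 0.399 against 2.47 ± 0.957 FPKM and 0.868 ± 0.243 against 1.54 ± 0.277.

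**Figure D4:**
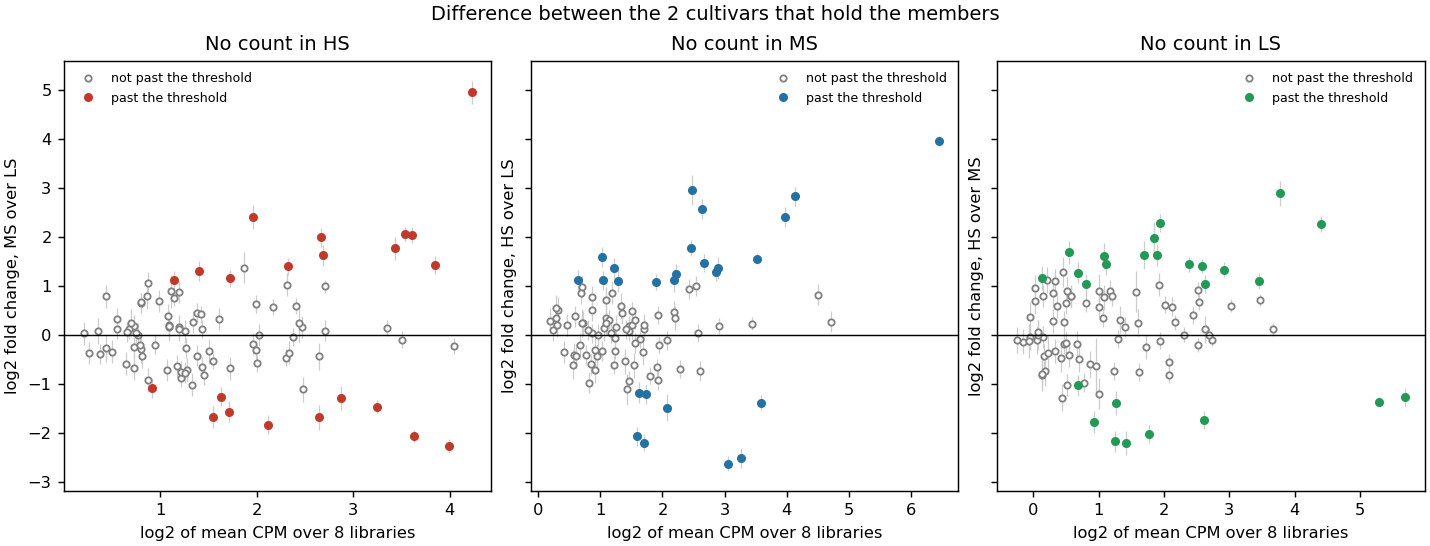
Log2 difference between the 2 genotypes that hold each member, from edgeR with SE bars, against the log2 of its mean CPM over the 8 libraries (filled points passed an adjusted p under 0.005 and a fold change over 2). Filled points number 22, 26 and 26, and c81139_g1 at 4.96 and c93830_g1 at 3.96 stand highest.

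After ethephon, 1 of the 300 members passed the test, in 1 genotype. The rank by the lowest library also favours members at like levels under water and ethephon, which bears on the counts below. In edgeR's quasi-likelihood test, 0 of 100 members without HS were called in MS (0.00184% of all unigenes tested) and 0 in LS (2.24%, of which 1.91% rose and 0.321% fell). Of those without MS, 0 were called in HS (0.0110%) and 1 in LS. Of those without LS, 0 were called in HS and 0 in MS. At an unadjusted p under 0.05 the members without HS numbered 8 in MS and 17 in LS, those without MS 2 in HS and 15 in LS, and those without LS 2 in HS and 13 in MS, where the shares of all unigenes tested were 4.02% in HS, 12.3% in MS and 24.5% in LS. Each of these counts lay near or below the share at large. Wherever edgeR called 0, DESeq2's Wald test and limma on log2(FPKM + 1) also called 0.

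The called member was c82621_g3, missing from MS. It had 2.39 and 1.71 CPM in LS_CK and 9.21 and 10.02 in LS_T, a log2 rise of 2.31 ± 0.27 with an adjusted p of 0.00150 in edgeR. In HS it had 27.5 and 16.7 CPM in HS_CK and 39.0 and 33.7 in HS_T, a log2 difference of 0.73 ± 0.24 with an adjusted p of 0.942. The ethephon groups did not overlap in either genotype, and the level after ethephon in LS stayed under that of each HS library. The difference between the effects, HS minus LS, was -1.58 ± 0.36 with an edgeR adjusted p of 0.0938. The call in LS was lost when any of the 4 LS libraries was left out, with an adjusted p from 0.00604 to 0.0193 and a log2 rise from 2.10 to 2.58.

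In LS the members leaned to lower values after ethephon, as did unigenes at large. The log2 difference was positive for 25 of 100 members without HS and 36 of 100 without MS, against 40.7% of all unigenes tested, with medians of -0.20 and -0.14. The median over all unigenes tested was -0.08, and the share without MS lay near that of unigenes at large. When the adjusted p limit was raised to 0.05 and the fold limit dropped, 0 members without HS rose and 6 fell, where 6.29% of all unigenes rose and 3.26% fell. For the members without MS, 2 rose and 4 fell.

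Library LS_T replicate 2 had the smallest total. It was the lowest of the 8 libraries for 36 of 100 members without HS and for 24 without MS. The same share among unigenes at large was not computed, and the rule ranked on the lowest library, so nothing is read from these 2 numbers. Against the mean CPM of the LS_CK libraries, 71 members without HS were lower in LS_T replicate 1 and 83 in replicate 2, against 62.7% and 62.9% of the 32719 unigenes counted in the same 8 libraries. For the members without MS the numbers were 72 and 70, against 62.3% and 61.8%. For the members without HS, the median log2 ratio to the water mean was -0.18 in LS_T replicate 1 and -0.54 in replicate 2. For the 32719 unigenes it was -0.13 and -0.18. The part of LS_T replicate 2 in the lean of the members without HS was not tested beyond these values.

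In HS and MS the medians lay nearer 0. After ethephon the median log2 difference was 0.01 in MS for the members without HS, -0.06 in HS for those without MS, and -0.09 in HS and 0.08 in MS for those without LS, where all unigenes tested had a median of 0.00 in both genotypes. The difference in ethephon effect between the holding genotypes was called for 0 members in each list by edgeR and by DESeq2, against 0.351% (MS minus LS), 0.0386% (HS minus LS) and 0% (HS minus MS) of all unigenes tested. At an unadjusted p under 0.05 there were 18, 8 and 8, against 13.6%, 11.7% and 5.84% of all. For the members without HS the difference MS minus LS was positive in 72 of 100, with a median of 0.31, against 55.3% and 0.08 for all unigenes tested.

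**Figure D5:**
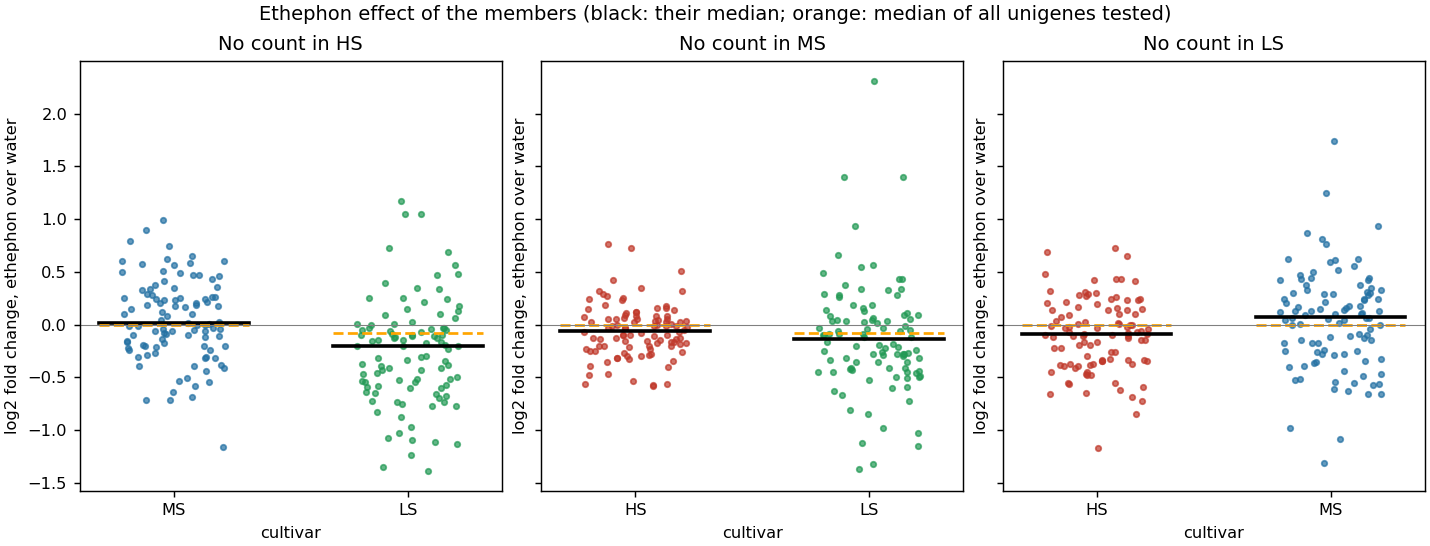
Log2 change after ethephon of each member in each genotype that holds it (points, spread sideways for sight), with the median of the members (black line) and of all unigenes tested (orange dashed line). In LS the members without HS have a median of -0.20, and c82621_g3 is the highest point at 2.31.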

How the data were processed

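RNA of developing stalk tissue was sequenced in 12 libraries, 2 biological replicates for each of 3 genotypes under water or ethephon. The authors removed adapters and low-quality reads, used Trinity to build 1 assembly from what remained, and counted each library on its unigenes with RSEM. The paper also states that only uniquely mapped reads entered the abundance values, while a small share of the deposited counts was not whole. The deposited expected counts, an estimated count per unigene, carry no scaling between libraries. The authors made the deposited FPKM values from counts and unigene length, and the length used was not stated in the sources used here. The implied length of some unigenes changed between libraries, so for these it was not a single fixed length. Technical replicates had been merged. The members, lists, naming rule and tests were chosen with earlier results of these data known.

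Expected counts were read as deposited for the rule, where CPM divides by the library sum, and rounded to whole numbers for tests. R 4.3.3, edgeR 4.0.16, limma 3.58.1 and DESeq2 1.42.0 were used, with Python 3.11.15, pandas 2.3.3 and matplotlib 3.10.9. In edgeR, filterByExpr with a minimum count of 10 kept 54433 unigenes, TMM scaled the libraries (0.919 to 1.09), and glmQLFit and glmQLFTest used 1 coefficient per group with 6 residual degrees of freedom. P-values were adjusted by Benjamini-Hochberg across every unigene tested, and the limits of 0.005 and 2-fold are those of the DEGseq analysis in the paper, which was not run here. A standard error is the log2 difference divided by the square root of F. Implied effective length, in kilobases, is CPM over FPKM. A bound on a fold divides the pooled counts of the 8 libraries, over their summed totals, by 3 counts over the summed totals of the 4 libraries at 0. The edgeR, DESeq2 and limma tests were first checked on simulated data.

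Named are, for each missing genotype, the 3 members of highest rank, the last inside and first outside the limit, at most 2 called members each way in each test, and the member with the most abundant partner in the missing genotype. Partner tests were added after the data were seen. The alternatives were other count minimums, sums per component, DESeq2's size factors and test, no filter, a looser threshold, only the 8 libraries, a replicate block, limma on log2(FPKM + 1) and log2(FPKM + 0.1), and leaving out each library. The assembly, its annotation and sequences were not analysed here.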

Additional observations from a re-analysis of the deposited data

How the results depend on the processing

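The number of unigenes that met the rule depended on the minimum. A minimum of 5 counts gave 339, 316 and 224 unigenes missing from HS, MS and LS, and a minimum of 20 gave 95, 91 and 55. Counts summed per component gave 94, 102 and 50 components. Allowing up to 3 counts over the 4 libraries gave 272, 273 and 187. With each library left out the numbers ran from 194 to 215, 183 to 201 and 122 to 135. Pooled counts and FPKM put the median implied length at 1028 bases without HS and 788 without LS, and leaving out a library put the latter between 785 and 832.

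Between the holding genotypes, leaving out a library gave 19 to 26 calls without HS, 19 to 28 without MS and 19 to 29 without LS. An adjusted p under 0.05 with no fold limit gave 50, 45 and 56, against 43.4%, 48.9% and 44.6% of all unigenes tested. Limma on log2(FPKM + 1) gave 17 without MS and 17 without LS. For ethephon in LS, the 1 call without MS became 2 by DESeq2, 4 with no filter, 6 at the looser threshold and 0 by limma on log2(FPKM + 0.1), and 0 or 1 with a library left out. The looser threshold gave 6 calls for ethephon in LS without HS, where 9.55% of all unigenes tested passed it. With no filter there was 1 call for HS minus LS without MS and 1 for ethephon in MS without LS. No difference turned direction, and of the 13 named differences c83415_g2 and c85325_g3 fell short of the threshold with limma on log2(FPKM + 1), and c85325_g3 and c82621_g3 with a pseudocount of 0.1. Partners called higher in the missing genotype became 8 in HS and 8 in MS with no filter and 13 and 15 at the looser threshold, and 20 in LS by limma on log2(FPKM + 1). The causes were not tested.

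Replicate numbers did not pair the samples in all groups, since 3 of 15 pairs of groups had correlated deviations over 0.1 (-0.17 to 0.38). These 3 were the pairs among HS_CK, HS_T and MS_CK. The correlation was 0.24 for HS_CK with HS_T, 0.38 for HS_CK with MS_CK and 0.28 for HS_T with MS_CK. A replicate block gave 24, 26 and 24 calls between the holding genotypes and 1 for ethephon in LS without MS. The depth limits what a count of 0 can show to levels above 0.0325 to 0.0338 CPM, and members near 1 CPM rest on few counts per library.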
